A study of Mus musculus with 6 samples.

Results

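The 10 genes described here, which build the vascular basement membrane, were followed in whole aortas: the collagen IV chains Col4a1, Col4a2 and Col4a5, the laminin chains Lama4, Lama5, Lamb1 and Lamc1, the proteoglycan perlecan (Hspg2), and the nidogens Nid1 and Nid2. They were chosen by gene symbol, and all 10 were found among the 18749 genes of the count files. Every recipient was an Apoe-/- mouse, lacking apolipoprotein E, that had been transplanted with bone marrow and then infused with angiotensin II (Ang II) for 28 days, a treatment that produces aortic aneurysms in such mice. In the control group (3 libraries) the donor marrow was Apoe-/-, and in the Sept2C111A group (3 libraries) it was Apoe-/-Sept2C111A, whose septin-2 carries, by the name of the allele, alanine in place of a cysteine. Both groups therefore share the Apoe-/- background of host and donor, the transplantation and the infusion, and there was no group without Ang II. Only marrow-derived cells carry the altered septin-2, while the smooth muscle, endothelium and fibroblasts of the wall are the host's. The sources used here state neither age nor sex, nor whether each library came from a single mouse, so p-values measure the spread between these libraries, which may in part be technical. By its title the study concerned S-nitrosylated septin-2 of macrophages in aneurysm development.

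The basement membrane is a thin sheet of matrix beneath the endothelium and around each smooth muscle cell of the aortic wall. Laminins, cross-shaped proteins of an alpha, a beta and a gamma chain, form a first network that integrins and dystroglycan hold at the cell surface. Collagen IV, secreted as a helix of intertwined chains, forms a second network, and nidogens and perlecan tie both together. Collagen IV of the Col4a1 and Col4a2 chains is the form made by nearly all tissues, and loss of either gene weakens vessel walls. Because whole aortas were sequenced, fewer cells of a type and less RNA per cell cannot be told apart in any value below.

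Library totals ran from 17082719 to 20494928 expected counts. Levels are CPM, the field's usual depth-scaled counts, on library sizes adjusted by the trimmed mean of M-values (TMM), as mean ± SD over 3 libraries unless single libraries are given. The least covered reading of any member was 359 counts, for Nid2, so counting error is small beside the spread between libraries. Smooth muscle markers, which define the tissue, were present in all 6 libraries (Myh11 from 714 to 4857 CPM). Septin2, the gene altered in the donors, stood at 313 ± 23.3 CPM in controls and 309.8 ± 35.8 CPM in Sept2C111A recipients, which does not check the genotype because an exchanged amino acid leaves the count as it is. Apoe counts were low in all libraries, from 9.54 to 29.6 CPM. Control 3 stood apart from the other 5 libraries. It had the lowest value in 6 of 7 smooth muscle markers (summed level 5541 CPM against 14760 to 22545) and in 7 of 7 adipocyte markers (692 against 1569 to 3933), and the highest in 6 of 6 markers of dividing cells (340.4 against 29.1 to 177) and 5 of 7 macrophage markers (3644 against 1550 to 2650). It was also highest in 6 of 10 endothelial markers (summed 1478 CPM, within the 735 to 1531 of the others) and lowest in 4 of 5 pericyte markers (602 against 898 to 1784). Sept2C111A library 3 held heart muscle transcripts, with Myh6 at 856 CPM against 0.297 to 27.2 in the others, and was lowest in 6 of 6 markers of dividing cells and highest in 5 of 9 of adventitial fibroblasts. Neutrophil markers separated the groups, with summed levels of 88.3 to 2911 CPM in controls (control 1 highest) and 15.8 to 28.8 CPM in Sept2C111A recipients. All 6 tested were lower without overlap, against 11.9% of all genes. DESeq2 called all 6 as lower, against 2.88% of all genes, and edgeR called 0 of all 14466 genes tested.

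None of the 10 genes passed edgeR's quasi-likelihood test after Benjamini-Hochberg adjustment over the 14466 genes tested, where the share of all genes called was 0%. A total of 7 members had a log2 fold change (Sept2C111A minus control) below 0, against 49.9% of all genes, and their median was -0.31 against 0.00 over all genes. That median was -0.16 without control 3, and equally -0.16 without Sept2C111A library 3. Lamb1 was the single member with an unadjusted p under 0.05 as lower, where 8.83% of all genes were (0 members were higher at this level, against 6.17%, and 15.0% of all genes passed it in either direction). It was also the single member whose groups did not overlap, against 23.1% of all genes in either direction, 11.9% as lower and 11.2% as higher. DESeq2, run as another test, called 0 of the 10 at an adjusted p under 0.05, against 3.97% of all genes (2.88% lower and 1.09% higher), and gave 2 of them an unadjusted p under 0.05, against 18.6%. The members' summed level was 6054, 6557 and 8183 CPM in controls 1, 2 and 3 and 5710, 7011 and 4069 CPM in Sept2C111A libraries 1, 2 and 3. These sums overlapped between the groups, with the highest in control 3 and the lowest in Sept2C111A library 3.

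**Figure D1:**
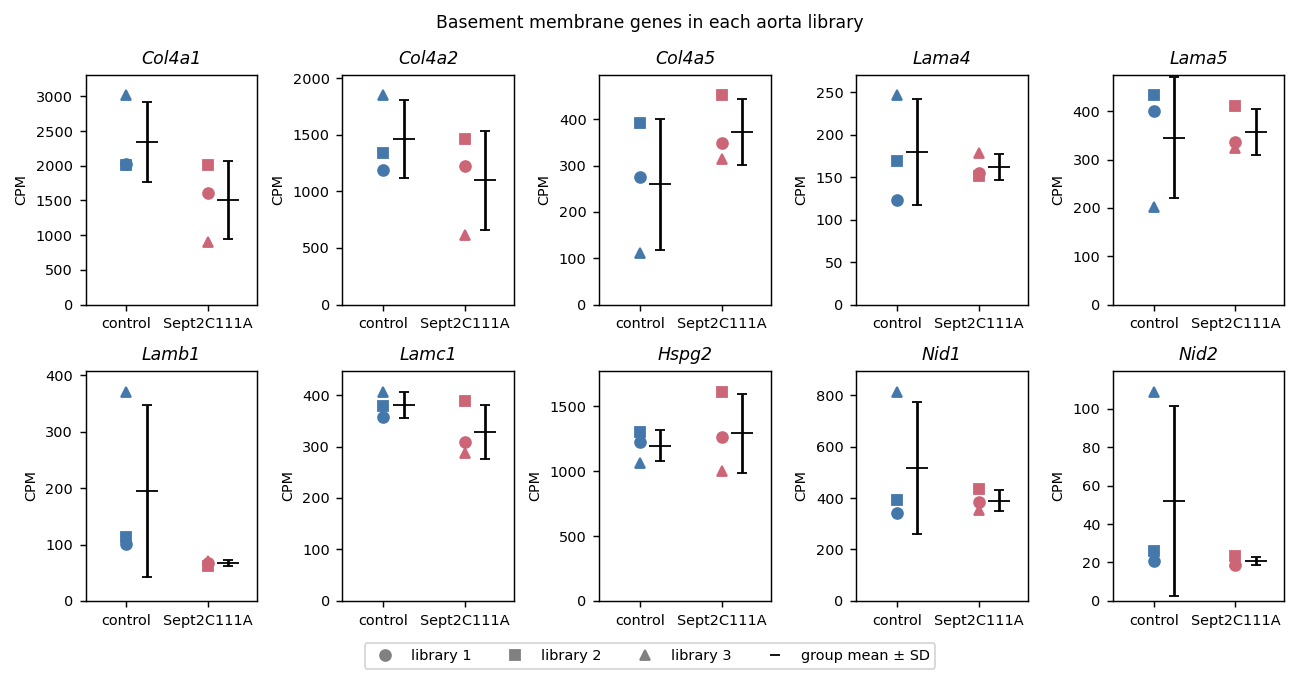
CPM (vertical axis, from 0) of each of the 10 genes in the 3 control and 3 Sept2C111A libraries, with a marker shape per library number and the group mean ± SD beside the points. Lamb1 is the panel without overlap, with every Sept2C111A library between 61.6 and 71.7 CPM, and control 3 is the outlying control for Lamb1, Nid1, Nid2, Col4a5 and Lama5.

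Lamb1 encodes the laminin beta1 chain, which joins an alpha and a gamma chain in most laminins of growing and vascular tissue. It lies on mouse chromosome 12 from 31265234 to 31329644 (plus strand, mm10), and its longest coding transcript has 33 exons. Lamb1 was at 100.3, 114 and 371 CPM in controls 1, 2 and 3, and at 68.0, 61.6 and 71.7 CPM in Sept2C111A libraries 1, 2 and 3. Every control lay above every Sept2C111A library, and control 3 lay more than 3-fold above the other controls. The log2 fold change was -1.54 (SE 0.52), a 2.9-fold lower mean, with an edgeR adjusted p of 0.316 and a DESeq2 adjusted p of 0.0678. Without control 3 it was -0.67 (SE 0.13, edgeR unadjusted p = 0.00298, adjusted p = 0.433). DESeq2 called Lamb1 lower in the fits without control 1 (adjusted p = 0.0192), control 2 (adjusted p = 0.0167) and control 3 (adjusted p = 0.00297), and in none of the fits without a Sept2C111A library (adjusted p from 0.171 upward). The neutrophil markers were lower in the same libraries as Lamb1, but the 2 were not ordered alike among the controls. Summed neutrophil markers were at 2911, 88.3 and 331 CPM in controls 1, 2 and 3, highest in the control with the least Lamb1. Summed dividing-cell markers (93.05, 176.7 and 340.4 CPM) and macrophage markers (1550, 2650 and 3644 CPM) rose from control 1 to control 3, as Lamb1 did. Both of these sums overlapped between the groups, and the other marker lists did not rise in this order. The part of any of these markers in the difference of Lamb1 was not tested. For Lamb1 the Sept2C111A libraries spanned 1.16-fold from lowest to highest and the controls 3.7-fold. The medians over all genes were 1.29-fold and 1.5-fold.

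Lamb2 encodes the alternative beta2 chain, typical of mature muscle and vessel walls, and is the natural counterpart of Lamb1. It was at 551, 841 and 329 CPM in the controls and at 893, 1043 and 935 CPM in the Sept2C111A libraries. Here every Sept2C111A library lay above every control, with control 3 lowest, and the log2 fold change was 0.74 (SE 0.35, edgeR adjusted p = 0.363). For Lamb2 it was 0.46 without control 3 and 1.12 without control 2, where DESeq2 called it (adjusted p = 0.00243). The ratio of Lamb1 to Lamb2, each as CPM per kb of its longest coding transcript, stood at 0.177, 0.131 and 1.1 for controls 1, 2 and 3 and at 0.0742, 0.0575 and 0.0746 for the Sept2C111A libraries. The beta2 transcript thus outnumbered beta1 in 5 libraries, and in control 3 both were about level. This ratio was singled out after its values were seen, so it is given without a test.

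Lamc1, on chromosome 1, encodes the gamma1 chain shared by most laminins. It varied least among controls, from 357 to 406 CPM, and lay between 288 and 388 CPM under Sept2C111A marrow, which overlapped (log2 fold change -0.21, SE 0.18, edgeR adjusted p = 0.55). The log2 ratio of Lamb1 to Lamc1 counts stood at -1.83, -1.74 and -0.13 for controls 1, 2 and 3 and at -2.18, -2.66 and -2.01 for the Sept2C111A libraries. All Sept2C111A ratios lay below all control ratios, a difference of -1.05, or -0.50 without control 3. The exact two-sided permutation p was 0.10, the smallest that 3 libraries against 3 allow, and 0.12 after adjustment over the 5 ratios tested. All 5 pairs were chosen with earlier results of these data known, so their p-values, here and below, only describe the separation. Lamb1 alone already separated the groups, so its ratio to Lamc1 is not independent of that.

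The laminin alpha chains decide which receptors a laminin binds. Lama5 (chromosome 2, 180176373 to 180225859, minus strand) makes the alpha5 chain, found beneath quiescent endothelium and in smooth muscle, and Lama4 (chromosome 10, 38965515 to 39110188, plus strand) makes the shorter alpha4 chain of vessel basement membranes. Lama5 was at 401, 433 and 202 CPM in controls 1, 2 and 3 and at 337, 412 and 324 CPM in the Sept2C111A libraries. Control 3 was lowest of all 6 for Lama5 and highest for Lama4, which ran from 123 to 246 CPM in controls and from 151 to 179 CPM in Sept2C111A recipients. Neither group difference was large beside its error: the log2 fold change was 0.05 (SE 0.31) for Lama5 and -0.15 (SE 0.26) for Lama4, with edgeR adjusted p of 0.943 and 0.79. Without control 3 both changed sign, to -0.22 (SE 0.18) and 0.15 (SE 0.19). Per kb of transcript, Lama4 was at 0.577, 0.734 and 2.3 times the level of Lama5 in controls 1, 2 and 3, and at 0.867, 0.691 and 1.04 times in the Sept2C111A libraries. The groups overlapped in this ratio (difference -0.21 on the log2 scale, exact permutation p = 0.90, 0.90 after adjustment), and control 3 was the single library with clearly more Lama4 than Lama5.

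**Figure D2:**
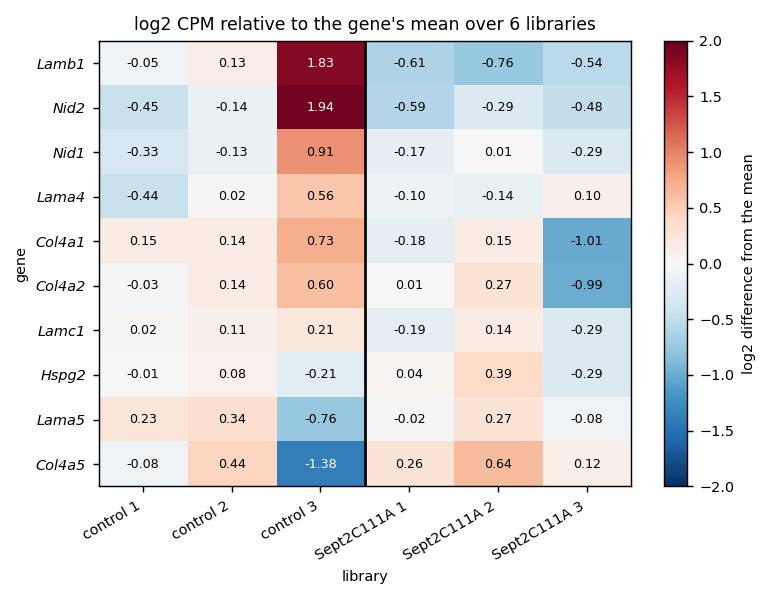
Log2 CPM of each gene minus its mean over the 6 libraries, with genes as rows and libraries as columns, red above and blue below the mean. The control 3 column runs from 1.94 for Nid2 and 1.83 for Lamb1 to -0.76 for Lama5 and -1.38 for Col4a5, and the Sept2C111A 3 column is lowest for Col4a1 and Col4a2.

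Col4a1 and Col4a2 encode the collagen chains that assemble into the main vascular collagen IV, and they are neighbours. Col4a1 spans 11198423 to 11312826 on the minus strand of chromosome 8 and Col4a2 spans 11312805 to 11449287 on the plus strand, so that the annotated genes run away from each other and share their first 22 bases. Those shared bases, printed because both genes of the most closely matched pair start there, read as follows on the strand of Col4a2 (RefSeq, GRCm38.p6, chr8:11312805-11312826).
Col4a1 and Col4a2 shared start: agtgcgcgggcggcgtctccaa

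Among the members, Col4a1 and Col4a2 were each other's nearest in pattern, with a root mean square difference of 0.13 between their centred log2 levels over the 6 libraries. Col4a1 was at 2019, 2005 and 3014 CPM in controls 1, 2 and 3 and at 1602, 2015 and 902 CPM in the Sept2C111A libraries. Col4a2 was at 1192, 1342 and 1847 CPM and at 1221, 1462 and 612 CPM. For both genes control 3 was highest, Sept2C111A library 3 was lowest, and the other 4 libraries lay between, so the groups overlapped. The log2 fold changes were -0.64 (SE 0.38) for Col4a1 and -0.41 (SE 0.38) for Col4a2, with edgeR adjusted p of 0.427 and 0.595. Without Sept2C111A library 3 they were -0.36 and -0.11, and without control 3 they were -0.42 and -0.21. Sept2C111A library 3 also had the heart muscle transcripts, the lowest dividing-cell markers (summed 29.1 CPM against 48.5 to 340.4) and the highest summed fibroblast markers (13382 CPM). The part of these in its low Col4a1 and Col4a2 was not tested.

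The balance of the pair separated the groups. The log2 ratio of Col4a1 to Col4a2 counts stood at 0.76, 0.58 and 0.71 for controls 1, 2 and 3 and at 0.39, 0.46 and 0.56 for the Sept2C111A libraries. Per kb of transcript this is 1.57 ± 0.0999 Col4a1 for each Col4a2 in controls and 1.35 ± 0.0801 in Sept2C111A recipients (SD, n = 3). All control ratios lay above all Sept2C111A ratios, though control 2 and Sept2C111A library 3 were close. The difference of -0.21 on the log2 scale had an exact permutation p of 0.10, the smallest possible, and 0.12 after adjustment over 5 ratios. It ran from -0.26 to -0.17 when each library was left out in turn, so no single library carried it.

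Col4a5, on the X chromosome from 141475385 to 141689234, encodes a chain that in smooth muscle basement membranes assembles with the Col4a6 chain. Col4a5 was at 275, 393 and 112 CPM in controls 1, 2 and 3 and at 348, 451 and 315 CPM in the Sept2C111A libraries. Control 3 had the lowest level of all, where Col4a1 was at its highest. The log2 fold change was 0.52 (SE 0.44, edgeR adjusted p = 0.567), 0.15 (SE 0.25) without control 3 and 0.95 without control 2. Col4a6 likewise had its lowest level in control 3 and its highest in Sept2C111A library 2. Its controls stood at 143, 264.5 and 30.8 CPM and its Sept2C111A libraries at 217, 293 and 257 CPM (log2 fold change 0.81, edgeR adjusted p = 0.557, 0.33 without control 3 and 1.56 without control 2). It is named after its values were seen. The log2 ratio of Col4a5 to Col4a1 counts stood at -2.88, -2.35 and -4.75 for controls 1, 2 and 3. The Sept2C111A libraries lay wholly above, at -2.20, -2.16 and -1.52. That difference of 1.37 (exact permutation p = 0.10, the smallest possible, 0.12 after adjustment) was 0.65 without control 3 and 1.15 without Sept2C111A library 3.

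To set beside these opposite patterns, the bases before Lamb1, which was highest in control 3, and before Col4a5 and Lama5, which were lowest there, are printed up to the first annotated exon base. They come from RefSeq windows of GRCm38.p6 that start 250 bases before each gene's RefSeq start: chr12:31265043-31265233 (plus strand), chrX:141475169-141475384 (plus strand) and chr2:180225860-180226109 (minus strand). Capitals mark the GC box GGGCGG and the CCAAT box, on either strand.
Lamb1 upstream: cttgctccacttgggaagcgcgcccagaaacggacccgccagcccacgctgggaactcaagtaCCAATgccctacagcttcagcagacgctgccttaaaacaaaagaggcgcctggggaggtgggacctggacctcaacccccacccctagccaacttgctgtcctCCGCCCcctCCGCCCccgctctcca
Col4a5 upstream: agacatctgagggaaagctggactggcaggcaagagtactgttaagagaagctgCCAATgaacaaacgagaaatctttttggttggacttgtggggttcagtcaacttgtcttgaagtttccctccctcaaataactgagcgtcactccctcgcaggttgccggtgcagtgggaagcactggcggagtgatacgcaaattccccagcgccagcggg
Lama5 upstream: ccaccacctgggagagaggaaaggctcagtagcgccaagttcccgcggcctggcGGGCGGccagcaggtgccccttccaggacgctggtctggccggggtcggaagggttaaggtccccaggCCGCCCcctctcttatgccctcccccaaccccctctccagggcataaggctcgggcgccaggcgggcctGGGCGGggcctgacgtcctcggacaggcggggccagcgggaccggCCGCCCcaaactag

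A window was found for 7 of the 10 members, Lama4, Lamc1 and Nid2 having none. Over the 250 bases before the RefSeq start, GGGCGG occurred on either strand in 6 of these 7 windows against 32.7% of all 32851 windows, CCAAT in 5 of 7 against 33.8%, and TATAA in 0 of 7 against 22.8%. The printed Lama5 stretch holds GC boxes and no CCAAT box, the Lamb1 stretch holds both, and the printed Col4a5 stretch holds a CCAAT box, with its GC box lying after the stretch shown. The Col4a1 and Col4a2 windows hold exon bases of each other's gene from their first base, so they are not free upstream sequence. The shared start printed above lies outside both windows and also holds GGGCGG, not marked there. The letters are a description of these windows and were not tied to the levels.

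The nidogens link the laminin network to collagen IV. Nid1, on chromosome 13, was at 343, 394 and 813 CPM in controls 1, 2 and 3 and at 384, 434 and 353 CPM in the Sept2C111A libraries. Nid2, on chromosome 14, was at 20.8, 25.8 and 109 CPM in controls and at 18.9, 23.2 and 20.4 CPM in Sept2C111A recipients. For both genes control 3 was far above the other 5 libraries, which overlapped between groups. For Nid2 the log2 fold change was -1.32 (SE 0.64, edgeR adjusted p = 0.366) and -0.16 (SE 0.17) without control 3. For Nid1 it was -0.40 (SE 0.35, edgeR adjusted p = 0.572) and 0.08 (SE 0.17) without control 3. Nid1 exceeded Nid2 by 10.5 ± 3.92-fold per kb of transcript in controls and 15.1 ± 1.2-fold in Sept2C111A recipients. The log2 ratio of the counts was higher in every Sept2C111A library than in every control, by 0.60 on average (exact permutation p = 0.10, the smallest possible, 0.12 after adjustment), or by 0.24 without control 3.

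Perlecan, the heparan sulfate proteoglycan encoded by Hspg2 on chromosome 4, is the largest member by transcript, with 97 exons. It ran from 1064 to 1304 CPM in controls and from 1004 to 1612 CPM in Sept2C111A recipients, and the groups overlapped. Its log2 fold change was 0.11 (SE 0.26, edgeR adjusted p = 0.841), and -0.07 without Sept2C111A library 2. Control 3, extreme for 9 of the 10 genes, was here second lowest of the 6 libraries.

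**Figure D3:**
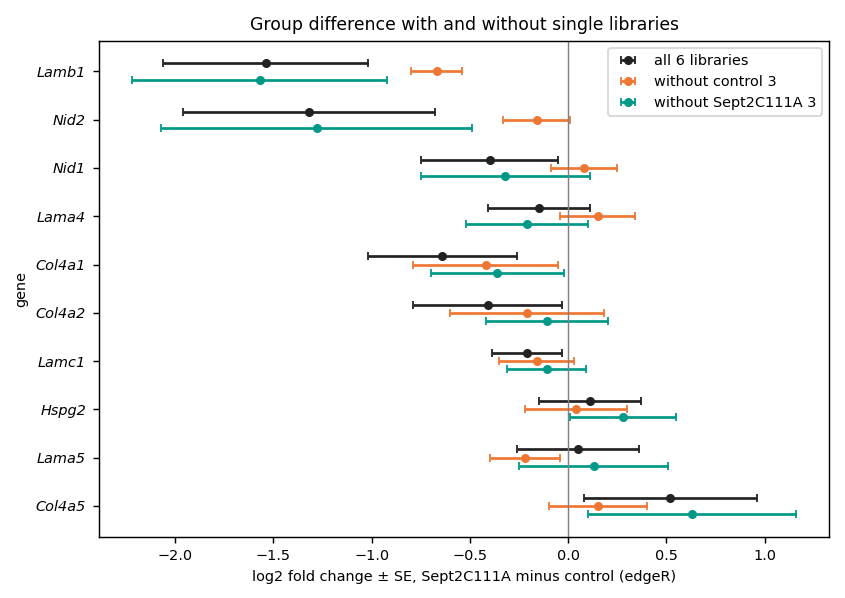
Log2 fold change ± SE (edgeR, Sept2C111A minus control, horizontal axis) of each gene with all 6 libraries, without control 3 and without Sept2C111A library 3. Lamb1 (-1.54, -0.67 and -1.57) and Col4a1 (-0.64, -0.42 and -0.36) stay below 0 by more than their SE in all 3 fits. Nid1, Lama4 and Lama5 change sign without control 3.

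Over all members, control 3 held the highest value of the 6 libraries for 7 genes and the lowest for 2, against 24.8% and 28.6% of all genes tested. Relative to the mean of controls 1 and 2 on the log2 scale, control 3 was higher by 2.23 for Nid2, 1.80 for Lamb1, 1.14 for Nid1, 0.77 for Lama4, 0.58 for Col4a1 and 0.55 for Col4a2. It was at -1.55 for Col4a5 and -1.05 for Lama5 by the same measure. A gap as large as that of Nid2, in either direction, was seen in 3.03% of all genes, and as large as that of Lamb1 in 5.23%. The share was 7.27% for Col4a5, 12.8% for Nid1, 14.8% for Lama5 and 22.3% for Lama4. It was 30.5% for Col4a1, 33% for Col4a2, 60.1% for Hspg2 and 74.8% for Lamc1, so these gaps were common in control 3. These gaps went with the low smooth muscle, pericyte and adipocyte markers and the high dividing-cell and macrophage markers of the same library. Control 3 was also highest in 6 of 10 endothelial markers, but their summed level lay within the range of the other libraries. The part of these markers in the gaps was not tested. Sept2C111A library 3 was lowest for 4 members, against 18.7% of all genes.

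**Figure D4:**
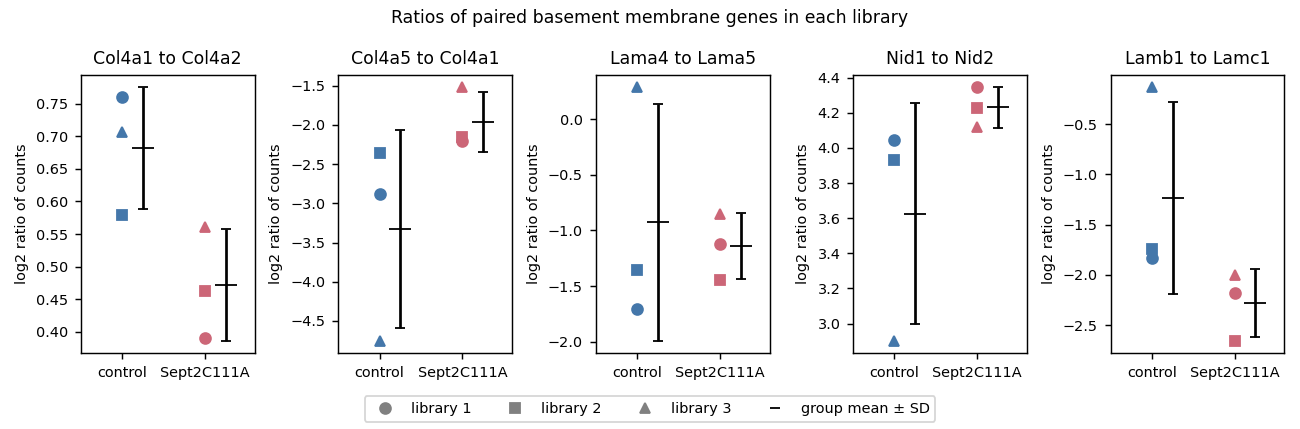
Log2 ratio of the counts of gene pairs within each library (vertical axis, each panel with its own range), for 3 control and 3 Sept2C111A libraries with the group mean ± SD. The groups are separate in all panels except Lama4 to Lama5, with the lowest Sept2C111A ratio of Nid1 to Nid2 at 4.12 and the highest control ratio at 4.05. The pairs were chosen with earlier results known, and the share of other gene pairs that separate was not computed. Without control 3 the difference is 0.65 instead of 1.37 for Col4a5 to Col4a1. It is 0.24 instead of 0.60 for Nid1 to Nid2, and -0.50 instead of -1.05 for Lamb1 to Lamc1.

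Scaled by transcript length and averaged over all 6 libraries, the levels ordered as Col4a1 (291 ± 104 CPM per kb), Col4a2 (198 ± 62.6), Hspg2 (87.8 ± 15.1), Nid1 (74.4 ± 29.4), Col4a5 (48.3 ± 17.9), Lamc1 (46.5 ± 6.14), Lama5 (30.9 ± 7.47), Lama4 (28.2 ± 6.88), Lamb1 (22.6 ± 20.6) and Nid2 (7.44 ± 7.30). Col4a1 exceeded Col4a2, and Col4a2 exceeded Hspg2, in 6 of 6 libraries. Several differences were smaller than their SD. Col4a5 over Lamc1 (1.82 ± 20.1 CPM per kb) and Lama5 over Lama4 (2.66 ± 13.8) each held in 4 of 6 libraries. Hspg2 over Nid1 (13.4 ± 36.4) and Lama4 over Lamb1 (5.55 ± 15.1) each held in 5 of 6, and Nid1 over Col4a5 (26.1 ± 44.4) held in 6 of 6. Nid2 was below Lamb1 in every library. Collagen IV transcripts of the Col4a1 and Col4a2 chains were thus the most abundant of the set per length, and Nid2 the least.

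The 5 genes outside the set whose centred log2 levels lay nearest to the members' mean profile, among 12460 searched, were Lpcat4, Cttn, Cdc16, Rbl1 and Nde1. Their root mean square differences from that profile over 6 libraries were 0.023, 0.029, 0.040, 0.046 and 0.047. The members' mean hides opposite patterns, so single members lay farther from each other: Lamb1 and Nid2 were nearest neighbours at 0.27, Nid1 and Lama4 at 0.24, and Col4a5 had Lama5 as its nearest at 0.35.

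The other collagen IV and laminin chains stood mainly on the other side. Of 10 genes 9 were tested, 7 had a log2 fold change above 0, and their median was 0.65, but edgeR and DESeq2 each called 0. The median was 0.33 without control 3 and 1.12 without control 2. Lama2, the alpha2 chain of muscle laminin, was at 91.9 ± 37.4 and 157 ± 39.4 CPM with overlapping groups (log2 fold change 0.78, edgeR adjusted p = 0.35, 0.51 on the log2 scale without control 3). Control 3 was lowest for 6 of the 9.

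Among 19 further basement membrane proteins, 7 were below and 12 above 0, the median was 0.34, and edgeR called 0. The median was 0.06 without control 3 and 0.20 without Sept2C111A library 2. DESeq2 called 1, Hmcn2, which encodes hemicentin-2, at 9.60, 26.3 and 10.7 CPM in controls and 84.2, 27.8 and 75.3 CPM in Sept2C111A recipients (log2 fold change 2.01, SE 0.56, edgeR adjusted p = 0.316, DESeq2 adjusted p = 0.0168). Control 2 and Sept2C111A library 2 differed little in Hmcn2. DESeq2 no longer called Hmcn2 without control 1 (adjusted p = 0.0928), control 3 (0.0885), or Sept2C111A library 1 (0.212) or 3 (0.227). Fbln1, the fibulin-1 that binds laminin and nidogen, was at 228 ± 16.1 and 402 ± 119 CPM (log2 fold change 0.82, edgeR adjusted p = 0.316). Vwa1, a perlecan-binding protein, was at 51.5 ± 4.77 and 39.6 ± 5.27 CPM (log2 fold change -0.38, edgeR adjusted p = 0.324). Adventitial fibroblast markers moved with Fbln1 and Hmcn2: 9 of 9 had a log2 fold change above 0, and their summed level was 5289 to 6352 CPM in controls and 8411 to 13382 CPM in Sept2C111A recipients. Their part in these values was not tested.

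Genes that modify, fold and export collagen chains were below 0 in 17 of 19 cases, with 0 calls by edgeR or DESeq2. Their median was -0.36 on the log2 scale (-0.23 without Sept2C111A library 3). The groups did not overlap for 3 of the 19 as lower and 1 as higher, against 11.9% and 11.2% of all genes. The genes named next had the smallest edgeR p of this list. P4hb, protein disulfide isomerase and a subunit of prolyl 4-hydroxylase, was at 1010, 964 and 1362 CPM in controls and 658, 877 and 557 CPM in Sept2C111A recipients, with no overlap (log2 fold change -0.67, edgeR adjusted p = 0.329). P3h1, a prolyl 3-hydroxylase, was at 97.9 ± 32.4 and 61.9 ± 16.3 CPM with overlap, and Mia3, the TANGO1 receptor that loads collagen into export carriers, was at 151 ± 9.60 and 125 ± 9.83 CPM without it (edgeR adjusted p = 0.35 and 0.357). For P3h1 the log2 fold change was -0.66, and -0.38 without control 3.

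Receptors for the basement membrane were above 0 in 12 of 15 cases, with a median of 0.29 and 0 calls by edgeR or DESeq2. The median was 0.09 without control 3 and 0.56 without control 2. The groups did not overlap for 3 of the 15, all as higher. Of all genes 11.2% did not overlap as higher, and 23.1% in either direction. The genes named next had the smallest edgeR p of these receptors. Bcam, a receptor for the laminin alpha5 chain, was at 214, 326 and 74.5 CPM in controls and 384, 405 and 397 CPM in Sept2C111A recipients, with no overlap (log2 fold change 0.95, SE 0.49, edgeR adjusted p = 0.379). Control 3 was lowest for Bcam as it was for Lama5. Without control 3 the log2 fold change of Bcam was 0.55, and without control 2 it was 1.46, where DESeq2 called it (adjusted p = 0.0242). Ddr2, a collagen-binding receptor kinase, was at 232 ± 70.3 and 356 ± 5.11 CPM (log2 fold change 0.62, edgeR adjusted p = 0.331, and 0.39 on the log2 scale without control 3), and Sgce, epsilon-sarcoglycan, at 54.2 ± 9.43 and 81.1 ± 7.40 CPM (log2 fold change 0.58, edgeR adjusted p = 0.316).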

How the data were processed

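Whole-aorta RNA was sequenced in 6 libraries. Per the labels' protocols, TRIzol lysates were purified and poly(A) transcripts were captured on oligo(dT) beads. The authors deposited expected counts per gene, not normalised, in a file per library; mm10, RSEM 1.3.1, Bowtie2 and DESeq2 1.4.5 are listed per the submitters' processing notes. Annotation, filters and strandedness: not given in the sources used here. Because RSEM divides ambiguous reads, shared bases of Col4a1 and Col4a2 could be split between them. The heading inside the file of Sept2C111A library 3 named a different library than its record did; the record was followed. Septin symbols that had been turned into dates were restored.

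Counts were rounded, filtered (filterByExpr, minimum count 10, 14466 genes kept), TMM-scaled and tested in R 4.3.3 with edgeR 4.0.16 (two-sided quasi-likelihood F test, group as factor, SE from the fold change and F value); adjusted p under 0.05 counted as passing. DESeq2 1.42.0 on the same genes, limma 3.58.1, other scalings and filters, left-out libraries and a replicate block were alternatives, and the code was tested on simulated data. Ratios used exact two-sided permutation tests. Lengths and coordinates (1-based) are from GENCODE vM21, with the longest coding transcript in its basic set. Replicates differed beyond sampling noise (chi-square per degree of freedom 50.2 to 237).

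The members, lists and tests were chosen with earlier results of these data known. Genes named are the 10 members, Septin2 and Apoe, the 3 of smallest p in each of 4 related lists (1 of these is not reported here), and the 5 nearest in profile among genes with a mean count of at least 50; any other, cell type markers aside, was chosen after its values were seen.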

Additional observations from a re-analysis of the deposited data

How the results depend on the processing

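edgeR called 0 genes, 0 of the 10 members and 0 of the 62 related genes tested under every alternative run with it, each left-out library included, and limma-voom with sample quality weights also called 0. DESeq2 called 575 genes, 0 members and 1 related gene. With each library left out in turn, an alternative added after seeing the data, it called 332, 1769 and 323 genes without controls 1, 2 and 3, and 240, 660 and 133 without Sept2C111A libraries 1, 2 and 3. The members called were 1 (Lamb1) in each fit without a control and 0 in each fit without a Sept2C111A library, and the related genes 2, 8, 1, 0, 5 and 0 in the same order, of which 0, 7, 1, 0, 2 and 0 were higher. Among genes named in the report these calls were P4ha3 without control 1, and Bcam, Hmcn2, Lama2, Lamb2 and Sgce without control 2. They were also Ddr2 without control 3, and Fbln1, Hmcn2 and P4hb without Sept2C111A library 2. Of these named genes P4ha3 (DESeq2 log2 fold change -2.59, adjusted p = 0.0469) and P4hb were lower, and the others were higher. Of 140 member values under alternatives, 131 kept their direction and 9 did not. Without control 3, Lama4 was at 0.15, Lama5 at -0.22 and Nid1 at 0.08. Without Sept2C111A library 2, Lama5 was at -0.06 and Hspg2 at -0.07. With controls 1 and 3 both left out, Col4a5 was at -0.08, Lama5 at -0.28 and Hspg2 at -0.01, and the lone control is then assumed to vary like the other group. limma-voom gave Lama5 -0.08. With a library left out, Lama4 ran from -0.35 to 0.15, Lama5 from -0.22 to 0.25, Hspg2 from -0.07 to 0.28 and Nid1 from -0.62 to 0.08. The cause of these reversals was not tested. With a library left out, the log2 ratio differences ran from -0.26 to -0.17 for Col4a1 to Col4a2, 0.65 to 1.85 for Col4a5 to Col4a1, -0.60 to 0.39 for Lama4 to Lama5, 0.24 to 0.81 for Nid1 to Nid2 and -1.35 to -0.50 for Lamb1 to Lamc1. The sample numbers did not pair the libraries (correlations of same-numbered deviations 0.01, 0.15 and -0.17). With the replicate block edgeR called 0 genes and Lamb1 was at -1.26, and within numbered pairs the ratio differences were the same, at -0.21, 1.37, -0.21, 0.60 and -1.05, with an exact sign-flip p no lower than 0.25. Leaving out a library from a ratio test cannot give a p under 0.10.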

Other observations

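Several related genes chosen after their values were seen shared the distance of control 3 from the other 5 libraries. P4ha3, a prolyl 4-hydroxylase subunit, was at 99.4 CPM in control 3 and at 4.62 to 20.6 CPM elsewhere. Pxdn, the peroxidase that cross-links collagen IV, was at 344 CPM against 88.1 to 182 CPM. Sparc, a collagen-binding matricellular protein, was highest in control 3 at 12761 CPM but not set apart, the others running widely from 3507 to 10076 CPM. Npnt, the integrin ligand nephronectin, was at 165 CPM in control 3 against 690 to 1285 CPM, and Lamc3, the laminin gamma3 chain, at 7.27 CPM against 60.4 to 213 CPM. Col4a3 and Col4a4, chains best known from the kidney filter, were at 4.01 and 5.79 CPM in control 3 and at 22.9 to 76.7 and 35.5 to 113 CPM in the other libraries. Of the 19 collagen processing genes 12 were highest in control 3, against 24.8% of all genes, and 9 were lowest in Sept2C111A library 3.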
